A study of Mus musculus with 16 samples.

Results

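How far the hippocampus of Kcna1 knockout mice on a ketogenic diet lay from that of untreated wild type mice was measured by RNA sequencing. The comparison took the 4 libraries whose column names mark a knockout on the ketogenic diet and the 4 that mark a wild type on the standard diet, 8 of the 16 libraries of the series. The other 8 libraries were wild type mice on the ketogenic diet and knockout mice on the standard diet, 4 of each, and they entered the model through the spread between animals. Genotype, diet and tissue came from the labels, while sex, age, strain, days on diet and the part of Kcna1 that was changed are not given in the sources used here. The labels do not say whether animals were littermates or whether any were pooled, so p-values measure the spread between these libraries. The columns name each library by an animal tag, and values below follow the order KC890RL, KC894RLL, KC897RR and KC900RLL for untreated wild type, then KC913RR, KC916RRL, KC934R and KC935LL for diet-treated knockout.

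Both steps of this comparison are made at once: genotype and diet differ together between its groups, so a difference cannot be assigned to one of them from these 8 libraries alone. Kcna1 encodes a pore-forming subunit of the Kv1 voltage-gated potassium channels, which sit along axons and limit repetitive firing. Mice without it have spontaneous seizures from early life. A ketogenic diet is rich in fat and poor in carbohydrate, raises circulating ketone bodies and is used against drug-resistant epilepsy. Much of the glial response to seizures is read from a few cell types: astrocytes, which raise intermediate filament genes when reactive, microglia, and oligodendrocytes, which wrap axons in myelin.

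Kcna1 itself, on the minus strand of chromosome 6 at 126640397 to 126646384 (GENCODE M21, GRCm38), was the check on the labels. Its level, in counts scaled to the effective library size (CPM), was 118, 130, 118 and 116 in untreated wild type and 43.4, 44.6, 47.2 and 43.5 in diet-treated knockout. The groups did not overlap, and some Kcna1 reads remained in every knockout library. The log2 fold change was -1.43 ± 0.15 (SE, n = 4 and 4; adjusted p = 0.00111, edgeR). One library outside the comparison, KC888LL, labelled knockout on the standard diet, had 82.0 CPM, between the other knockouts and the wild types. It lay 0.380 from the untreated wild types in the distance described below and 0.479 from its own group. Another 2 libraries of that group, KC872RL and KC873RR, had 63.2 CPM of the Y-linked gene Ddx3y, against 0.444 CPM or less in its other 2. Summed over 5 sex-linked genes, KC872RL and KC873RR had 205 and 202 CPM. Among wild types on the ketogenic diet, that sum was 188 CPM in KC846L and 736 to 822 CPM in the others. KC846L lay 0.498 from the untreated wild types, and the others lay 0.395 to 0.405 from them. The main values that use knockout on the standard diet are also given without KC888LL and without KC872RL and KC873RR, settings chosen after seeing the data.

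Total counts ran from 14481657 to 15844164 in untreated wild type and from 13440230 to 18267878 in diet-treated knockout. Markers of hippocampal neurons were present: all 10 dentate granule cell genes, all 8 CA1 and all 8 CA3 pyramidal cell genes passed the low-count filter, and Prox1, a dentate granule cell transcription factor, averaged 144 CPM in wild type and 166 CPM in knockout. In bulk tissue, fewer cells of a type and less RNA per cell cannot be told apart. Reads of the Y-linked gene Ddx3y were at 65.1 CPM in 1 of the 4 untreated wild type libraries, KC890RL, and at 0.196 CPM or less in the other 7, so the groups differed in apparent sex composition.

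Over all tested genes, the distance between the groups was small beside the distance between animals of 1 group. The root mean square difference in log2 CPM was 0.481 between a diet-treated knockout and an untreated wild type library and 0.458 within the groups, a gap of 0.0232. The one-sided exact permutation test over the 35 divisions of 4 and 4 libraries gave p = 0.0571, or 0.114 adjusted over the 3 groups set against untreated wild type, and the smallest p this design allows is 0.0286. The same gap was 0.0377 for knockout on the standard diet and 0.00931 for wild type on the ketogenic diet, each with an exact permutation p of 0.114; these 3 values share the untreated wild type libraries. The gap for knockout on the standard diet was 0.0837 without KC888LL (exact permutation p = 0.0286) and -0.00455 without KC872RL and KC873RR (exact permutation p = 0.6 over 15 divisions). Among the diet-treated knockouts, KC913RR averaged 0.594 from the wild types, and the other 3 averaged 0.416 to 0.475. Untreated wild types averaged 0.411 to 0.439 from each other, and KC935LL at 0.416 and KC916RRL at 0.438 lay within that range. Over the 500 genes of largest variance the gap was 0.139, also with an exact permutation p of 0.0571. Without KC935LL the gap over all tested genes was 0.0495, with an exact permutation p of 0.0286, and without KC894RLL it was 0.00691.

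Of 17469 tested genes, 59 differed at an adjusted p under 0.05 (0.338%), and these are the genes termed called here. Lower levels in the diet-treated knockout made up 52 of them (0.298%) and higher levels 7 (0.0401%). In 51 of the 52 lower genes and in all 7 higher genes the 4 libraries of each group did not overlap; over all tested genes, 2.74% lay wholly below and 1.95% wholly above. At an unadjusted p under 0.05 there were 1549 genes (8.87%), of which 746 were higher (4.27% of those tested) and 803 lower (4.6%). The median log2 fold change of all tested genes was 0.01. For 10540 genes (60.3%) the 95% interval of the log2 fold change lay wholly within -0.5 to 0.5, and for 14705 genes within -1 to 1, which bounds their difference at this depth.

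How many genes were called depended on the libraries in the fit. With only the 8 libraries compared, 12 genes were called and 11 of them were among the 59. Leaving out KC890RL, KC894RLL, KC897RR or KC934R left 10 to 15 called genes, leaving out KC916RRL or KC913RR left 31 and 36, and leaving out KC900RLL or KC935LL gave 95 and 119. With only the libraries that had Xist above 100 CPM and Ddx3y under 10 CPM, 8 genes were called, and with Xist as a covariate 49, of which 45 were among the 59. No called gene changed direction in any of the 19 alternative fits. Dropping any single one of the 8 libraries left 10 of the 59 called in all 8 refits: Adamts4, Kcna1, Phldb1, Gjb1, Serpinb1a, Lpar1, Gab1, Mag, Tmem63a and Prr18. Every other called gene, including those described below as risen or fallen, lost its call in 1 or more of these refits.

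**Figure D1:**
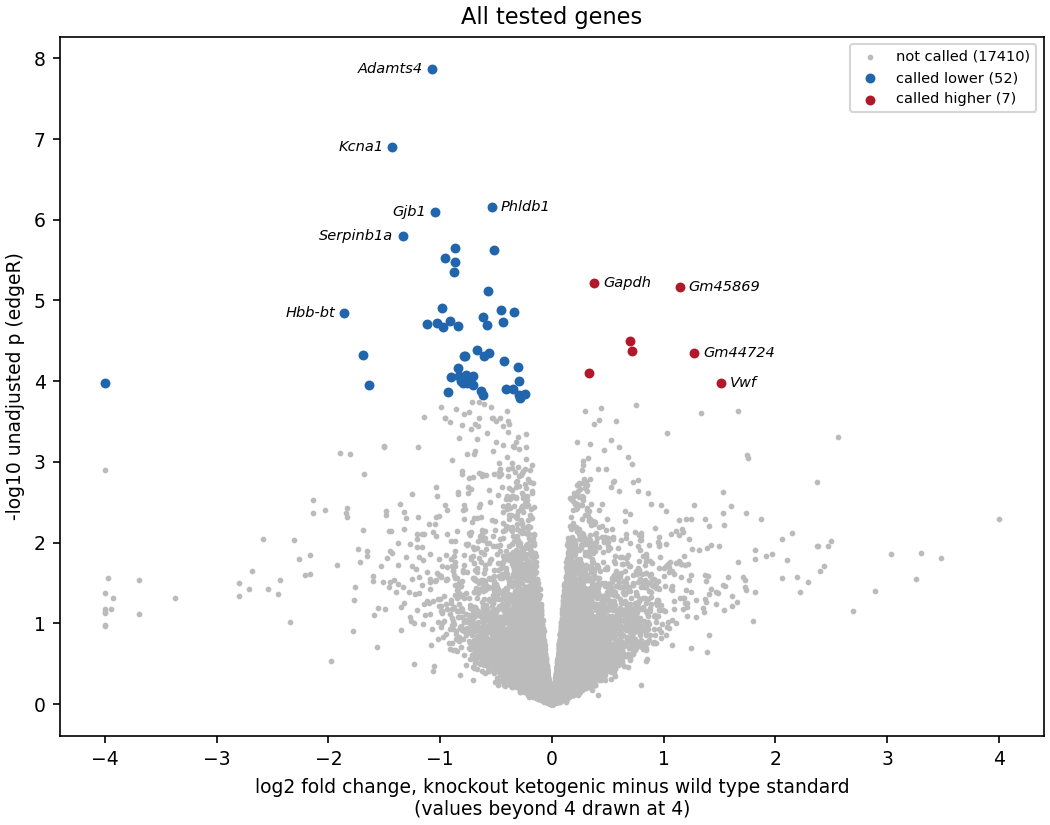
Each point is 1 of 17469 tested genes; the horizontal axis is the log2 fold change of diet-treated knockout over untreated wild type and the vertical axis is the -log10 of the unadjusted edgeR p. Called genes are coloured, 52 lower and 7 higher, with Adamts4 at the top of the lower side.

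Genes of myelin and mature oligodendrocytes were lower in the diet-treated knockout. All 20 genes of the list had negative log2 fold changes and an unadjusted p under 0.05, 10 were called, and 13 did not overlap between groups. Their median log2 fold change was -0.84, against 0.01 over all tested genes. Among the called members were Gjb1, Mag, Nkx6-2, Mbp, Tspan2, Myrf, Aspa, Cnp and Trf. In each of the 19 alternative fits all 20 genes remained below 0, and the number called ran from 1 to 20, with 1 in the fit of the 8 libraries alone and 20 with DESeq2.

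Among the structural proteins of myelin, Mbp, which encodes the basic protein that compacts the myelin layers, stood at 2766, 2561, 2526 and 1838 CPM in wild type and at 866, 1374, 1096 and 1606 CPM in knockout. Every knockout library was below every wild type library, with KC900RLL the lowest wild type and KC935LL the highest knockout. The log2 fold change was -0.97 ± 0.16 (SE, n = 4 and 4; adjusted p = 0.0149, edgeR). Mag, an adhesion molecule of the innermost myelin layer, was at 171, 156, 156 and 116 CPM in wild type and 59.9, 84.4, 69.1 and 95.7 CPM in knockout, a log2 fold change of -0.96 ± 0.14 (adjusted p = 0.00645). Gjb1, a gap junction protein between myelin layers, was called with a log2 fold change of -1.05 ± 0.15 (adjusted p = 0.00349), from 9.02 to 12.3 CPM in wild type and from 4.64 to 6.11 CPM in knockout. Cldn11, Mog, Mal and Opalin, further myelin membrane genes, had log2 fold changes of -0.96, -0.96, -0.90 and -0.86 and were not called.

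Among enzymes and carriers of the same cells, Cnp, a phosphodiesterase of uncompacted myelin, fell by 0.90 ± 0.17 on the log2 scale (adjusted p = 0.0369, edgeR). Aspa, which breaks down N-acetylaspartate to supply acetate for lipid synthesis, fell by 0.83 ± 0.17 (adjusted p = 0.0369). Trf, encoding transferrin, fell by 0.62 ± 0.13 (adjusted p = 0.0446). Its groups came close, from 33.4 to 52.3 CPM in wild type and from 25.02 to 32.5 CPM in knockout. Fa2h and Ugt8a, enzymes of myelin glycolipid synthesis, both had a log2 fold change of -0.80 and were not called.

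Myrf, Sox10 and Nkx6-2, transcription factors of the lineage in the lists, were called in 2, 2 and 4 of the 8 refits that dropped a library. Myrf, which drives the expression of myelin genes, had 65.8, 68.3, 66.7 and 49.4 CPM in wild type and 34.1, 42.7, 36.9 and 50.6 CPM in knockout. KC935LL exceeded KC900RLL, which made Myrf the one called gene with overlapping groups; its log2 fold change was -0.61 ± 0.11 (adjusted p = 0.0252, edgeR). Sox10, required through the oligodendrocyte lineage, fell by 0.56 ± 0.11 on the log2 scale (adjusted p = 0.0252), and Nkx6-2 fell by 0.84 ± 0.15 (adjusted p = 0.0149). Of the 12 genes of precursors and differentiating cells, Sox10 alone was called, 4 had an unadjusted p under 0.05, all lower, and the median log2 fold change was -0.35. Over the list, 10 genes had negative log2 fold changes and 2 positive ones. The genes of newly differentiating cells Enpp6, Bcas1 and Bmp4 had log2 fold changes of -1.498, -0.84 and -1.12. The precursor markers Pdgfra and Cspg4 had -0.08 and 0.03, and none of these 5 was called. Precursor genes and differentiating genes were not tested against each other.

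Mag and Gjb1 had the smallest p of the called myelin list genes, and both stayed called whichever of the 8 libraries was dropped. Their promoters were chosen by that p, and are shown because SOX10 and MYRF act at myelin promoters. They are the 250 bases before the transcription start in RefSeq on GRCm38.p6, 5′ to 3′ on the gene's strand. Capitals mark the letters ACAAAG or ACAATG, a SOX core, and CTGGCAC or CTGGTAC, a MYRF motif, on either strand; the motifs do not overlap here. Mag lies on the minus strand at chr7:30914864-30915113 and Gjb1 on the plus strand at chrX:101376126-101376375.
Mag: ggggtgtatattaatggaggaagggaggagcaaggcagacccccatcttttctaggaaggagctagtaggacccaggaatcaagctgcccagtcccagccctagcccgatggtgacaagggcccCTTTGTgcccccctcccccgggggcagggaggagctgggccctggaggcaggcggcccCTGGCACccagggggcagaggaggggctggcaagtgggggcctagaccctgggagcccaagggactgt
Gjb1: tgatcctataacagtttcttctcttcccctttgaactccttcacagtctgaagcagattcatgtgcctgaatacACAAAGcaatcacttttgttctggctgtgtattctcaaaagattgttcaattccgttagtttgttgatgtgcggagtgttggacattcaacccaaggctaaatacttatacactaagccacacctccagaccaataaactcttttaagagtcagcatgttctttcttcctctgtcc

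Mag held 1 SOX core and 1 MYRF motif in this window, and Gjb1 held 1 SOX core. A window was matched for 29 of the 52 genes called lower. The SOX core was in 8 of these 29 (27.6%) and in 17.3% of the 12166 tested genes with a window. The MYRF motif was in 4 of the 29 (13.8%) and in 5.61% of the 12166. A match describes letters in this window and no binding was measured.

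The other groups give the myelin values for genotype and diet separately. The comparisons against untreated wild type share its libraries and are given side by side. The median log2 fold change of the 20 genes against untreated wild type was -0.84 in diet-treated knockout, -0.49 in diet-treated wild type and -0.02 in knockout on the standard diet. None of the 20 was called in the latter 2 comparisons, where 2 genes (0.0114%) and 1 gene (0.00572%) were called in all. Among diet-treated wild types, the myelin sum was 3845 CPM in KC846L and 4388 to 4878 CPM in the others. Values of that group are not given without KC846L. Between the knockouts, the ketogenic diet gave a median of -0.84 with 15 of the 20 called lower, where 202 genes (1.16%) were called in all and 166 (0.95%) lower. Without KC888LL that median was -0.84, with 15 of the 20 called and 1096 genes in all. Without KC872RL and KC873RR it was -0.84, with 2 genes called in all by edgeR, none of them among the 20, all of which had an unadjusted p under 0.05. Without KC888LL, 1016 genes were called between untreated knockout and untreated wild type, and the myelin median was -0.03. Between the genotypes on the ketogenic diet the median was -0.38 with none of the 20 called, and 3 genes (0.0172%) were called in all. No interaction of genotype and diet was called among the 52 genes lower in the diet-treated knockout. The smallest interaction p among them was that of Hbb-bt, with a log2 value of -2.31 (adjusted p = 0.22, edgeR). Hbb-bs and Hba-a1 had -1.99 and -1.88, each with an adjusted p of 0.654 in edgeR.

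**Figure D2:**
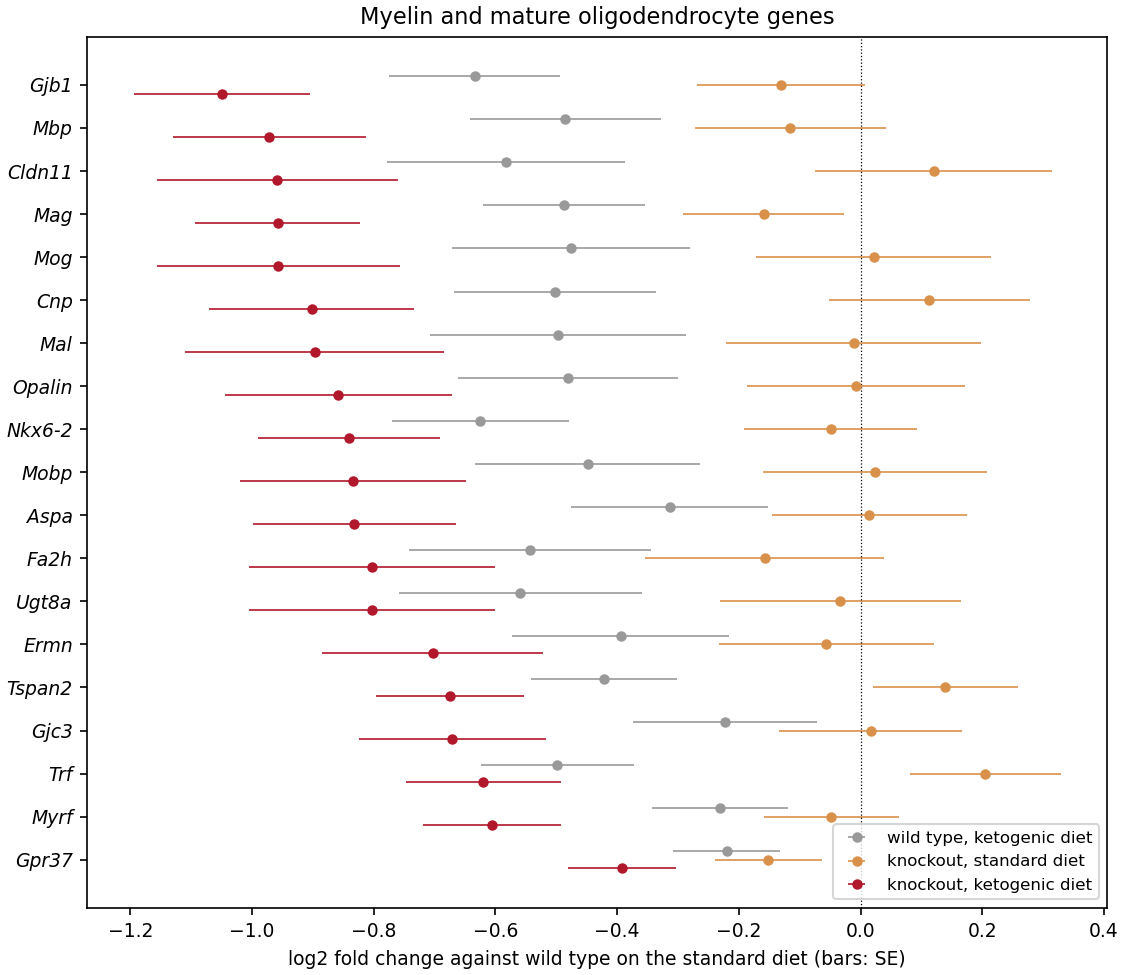
Log2 fold changes of 19 of the 20 myelin and mature oligodendrocyte genes against wild type on the standard diet, with bars of 1 standard error, for 3 groups of 4 libraries. Diet-treated knockout points run from -1.05 for Gjb1 to -0.39 for Gpr37; knockouts on the standard diet lie around 0 and wild types on the ketogenic diet between.

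Summed levels of thalamic markers did not overlap between the groups. The sum of 10 thalamic genes was 180 to 201 CPM in untreated wild type and 123 to 174 CPM in diet-treated knockout. All 8 tested genes of that list had negative log2 fold changes, with a median of -0.26, 1 had an unadjusted p under 0.05 and none was called. Of 9 striatal genes 6 were positive, with a median of 0.12, or -0.05 without KC913RR, and no call. The thalamus is a myelin-rich neighbour of the hippocampus, and the part of tissue boundaries in the myelin result was not tested. In library order, the thalamic sums were 180, 201, 181 and 199 CPM in wild type and 123, 154, 140 and 174 CPM in knockout. The myelin sums were 7173, 6640, 6305 and 4628 CPM in wild type and 2296, 3467, 3042 and 4203 CPM in knockout. The libraries ranked alike in both lists among the knockouts but not among the wild types, where KC890RL had the highest myelin and the lowest thalamic sum.

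Adamts4, a protease that cleaves aggrecan and brevican in the extracellular matrix and is made by oligodendrocytes, had the smallest p of all tested genes. The gene lies on the plus strand of chromosome 1 at 171250421 to 171260637. Its level was 27.7, 22.8, 24.7 and 21.8 CPM in untreated wild type and 10.6, 11.6, 10.99 and 12.9 CPM in diet-treated knockout. The groups were far apart, and the spread within each was small. The log2 fold change was -1.07 ± 0.11 (SE, n = 4 and 4; adjusted p = 0.000234, edgeR), and Adamts4 was called in all 19 alternative fits. Against the same wild types, it was lower by 0.69 ± 0.11 in diet-treated wild type (adjusted p = 0.0415) and had a log2 fold change of -0.10 in knockout on the standard diet, or -0.20 without KC888LL and -0.04 without KC872RL and KC873RR. Neither of its matrix substrates was called: Bcan had a log2 fold change of -0.18 and Acan 0.46, and Adamts4 was the only called gene of 10 in the list of perineuronal nets and lecticans, whose median was 0.00.

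Some further genes called lower are known from oligodendrocytes but were not in the list, and they were not tested as a group. Lpar1, a lysophosphatidic acid receptor of maturing oligodendrocytes, had 29.4, 28.9, 23.02 and 20.6 CPM in wild type and 14.4, 13.4, 13.3 and 14.8 CPM in knockout, a log2 fold change of -0.87 ± 0.13 (adjusted p = 0.00591, edgeR). Car2, the carbonic anhydrase of oligodendrocytes, fell by 0.57 ± 0.09 on the log2 scale (adjusted p = 0.0104), with 117 to 152 CPM in wild type and 78.5 to 107 CPM in knockout. Elovl7, which elongates fatty acids, fell by 0.93 and Cers2, which makes very-long-chain ceramides, by 0.35. Npc1, which exports cholesterol from lysosomes, fell by 0.29, and all were called. The fixed lists of cholesterol genes and of fatty acid oxidation genes gave no call, and 22 of the 24 cholesterol genes were positive. S1pr5, a sphingosine phosphate receptor of the lineage, fell by 0.76. These 4 genes were chosen after their values were seen.

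Serpinb1a, a protease inhibitor, fell from 5.65, 7.002, 5.77 and 5.82 CPM to 2.14, 3.37, 1.88 and 2.29 CPM, a log2 fold change of -1.34 ± 0.19 (adjusted p = 0.00561, edgeR). Phldb1, a membrane-associated scaffold, fell by 0.53 ± 0.07 on the log2 scale (adjusted p = 0.00349). Gab1, an adaptor of receptor tyrosine kinases, fell by 0.52 ± 0.08 (adjusted p = 0.00591). Tmem63a, a mechanically gated ion channel, fell by 0.87 ± 0.13 (adjusted p = 0.00645) and Prr18 by 0.88 ± 0.13 (adjusted p = 0.00776). In each of these 5 genes the groups did not overlap, which the rule that named them required.

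**Figure D3:**
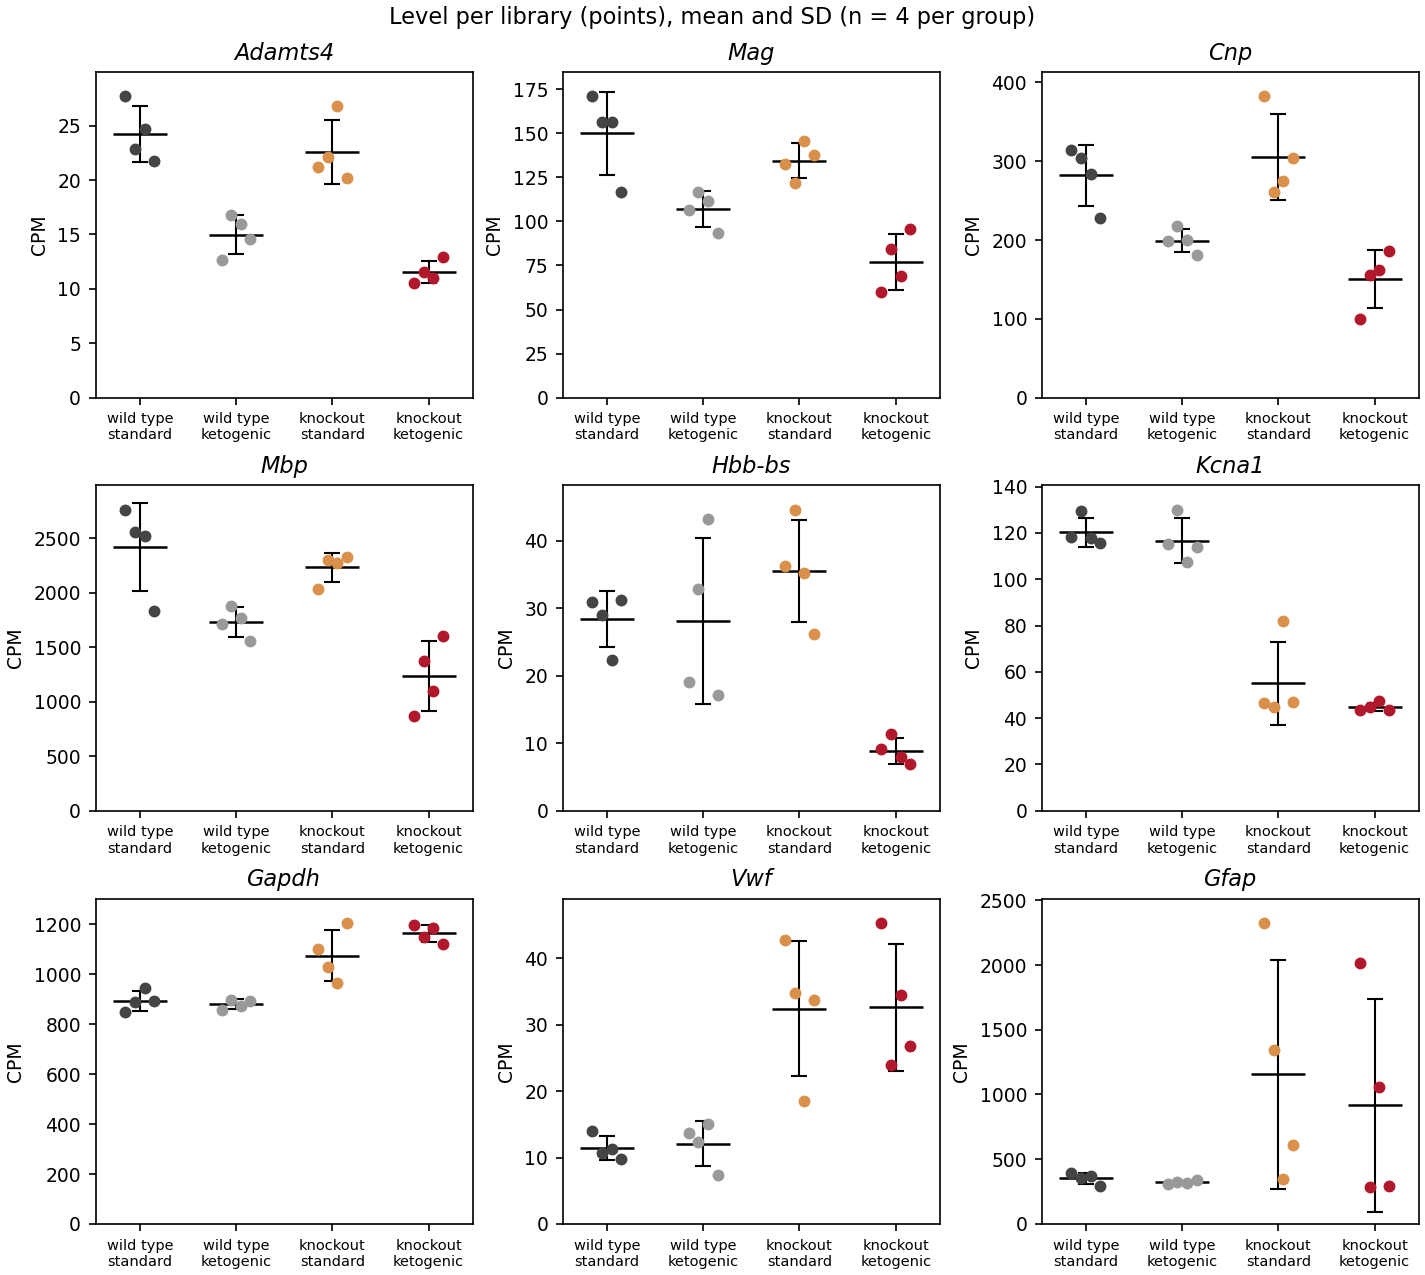
Level in CPM of 9 genes in every library, by group; points are libraries, lines the mean and bars the SD of 4 libraries. For Adamts4, Mag, Cnp, Mbp, Hbb-bs and Kcna1 the diet-treated knockouts lie wholly below the untreated wild types, for Gapdh and Vwf wholly above, and for Gfap 2 knockouts lie far above the wild types and 2 near the lowest of them.

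Haemoglobin genes were lower in the diet-treated knockout. Hbb-bs was at 30.9, 29.0, 22.4 and 31.3 CPM in wild type and 9.10, 11.4, 7.90 and 6.99 CPM in knockout, without overlap, a log2 fold change of -1.69 ± 0.29 (adjusted p = 0.0252, edgeR). Hba-a1 fell by 1.63 ± 0.30 on the log2 scale (adjusted p = 0.0383) and Hbb-bt by 1.86 ± 0.32 (adjusted p = 0.0149). These genes have near-identical copies, so the split of reads between copies is uncertain. Alas2, which starts haem synthesis in red cells, had a log2 fold change of -1.498 and was not called. Of the 6 genes of the red blood cell list 5 were lower, 3 of them called. The remaining 1 was higher at an unadjusted edgeR p under 0.05, with a log2 fold change of 0.16. The summed level of the list overlapped, at 376 to 410 CPM in wild type and 352 to 422 CPM in knockout. Blood left in the tissue was not measured separately. Endothelial genes gave no call among 12, with a median log2 fold change of 0.09.

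Choroid plexus genes varied widely between single wild type libraries. The summed level of 10 such genes was 205, 1670, 508 and 163 CPM in untreated wild type and 104, 140, 145 and 163 CPM in diet-treated knockout. Of these genes 9 were lower, 5 at an unadjusted p under 0.05, with a median log2 fold change of -2.57, and none was called. Without KC894RLL the median was -1.31. Enpp2, a list member also made by oligodendrocytes, had 152, 573, 214 and 125 CPM against 50.4, 92.4, 92.9 and 102 CPM.

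**Figure D4:**
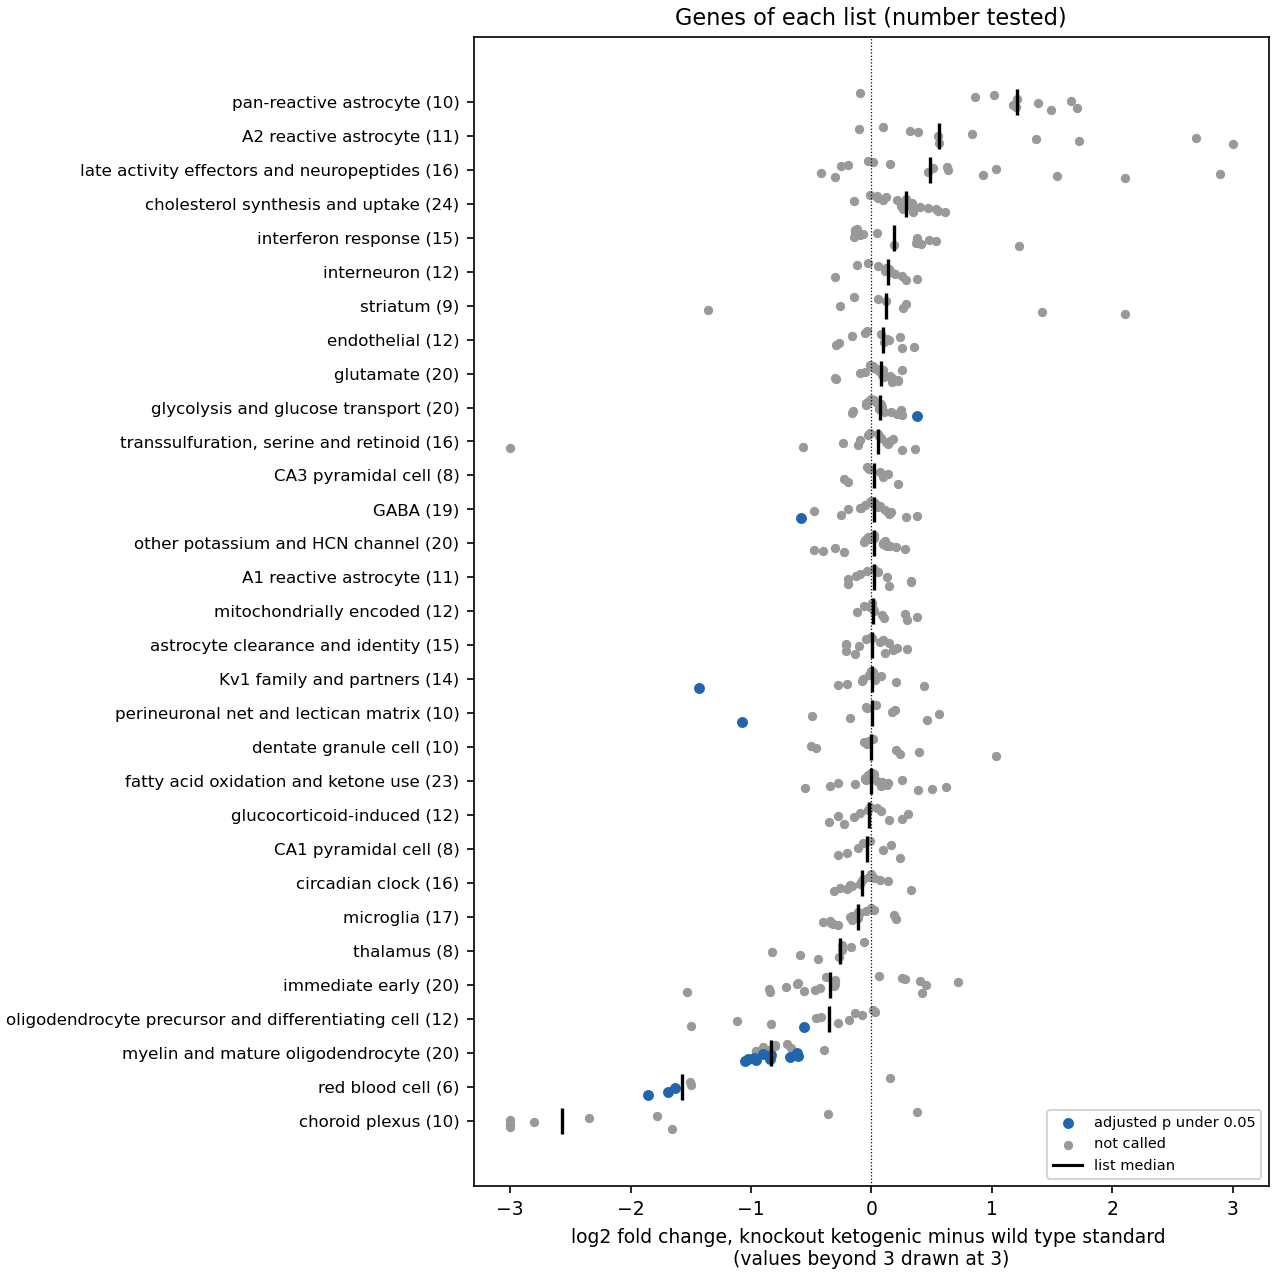
Log2 fold change of diet-treated knockout over untreated wild type for each tested gene of 31 lists, with the number tested in brackets and the list median as a bar; values beyond 3 are drawn at the edge. The myelin list lies wholly below 0 and holds 10 called genes, while no gene of the reactive astrocyte lists was called.

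Of the 7 genes called higher, 4 lie within 10 Mb of Kcna1 on chromosome 6, a stretch that can be carried along with a targeted locus from the strain of origin. They are Gapdh, Ncapd2, Vwf and Gm45869, and 173 genes were tested in the window without Kcna1, so 2.31% were called there against 54 of 17295 (0.312%) elsewhere. Genes on the same chromosome stretch are not independent of each other. Vwf, which encodes von Willebrand factor, rose from 14.1, 10.6, 11.3 and 9.74 CPM to 45.4, 23.9, 34.4 and 26.8 CPM, a log2 fold change of 1.51 ± 0.28 (adjusted p = 0.0379, edgeR). Ncapd2, a condensin subunit, rose by 0.70 ± 0.13 on the log2 scale (adjusted p = 0.0214) and Gm45869 by 1.14 ± 0.18 (adjusted p = 0.01). The count of called genes in the window was 2 with only the 8 libraries compared and 0 without KC890RL. In knockout on the standard diet, the log2 fold changes of Vwf, Ncapd2 and Gm45869 against the same wild types were 1.501, 0.67 and 0.99 (1.69, 0.78 and 1.05 without KC888LL, and 1.18, 0.53 and 0.94 without KC872RL and KC873RR), and in wild type on the ketogenic diet 0.07, 0.16 and 0.26.

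**Figure D5:**
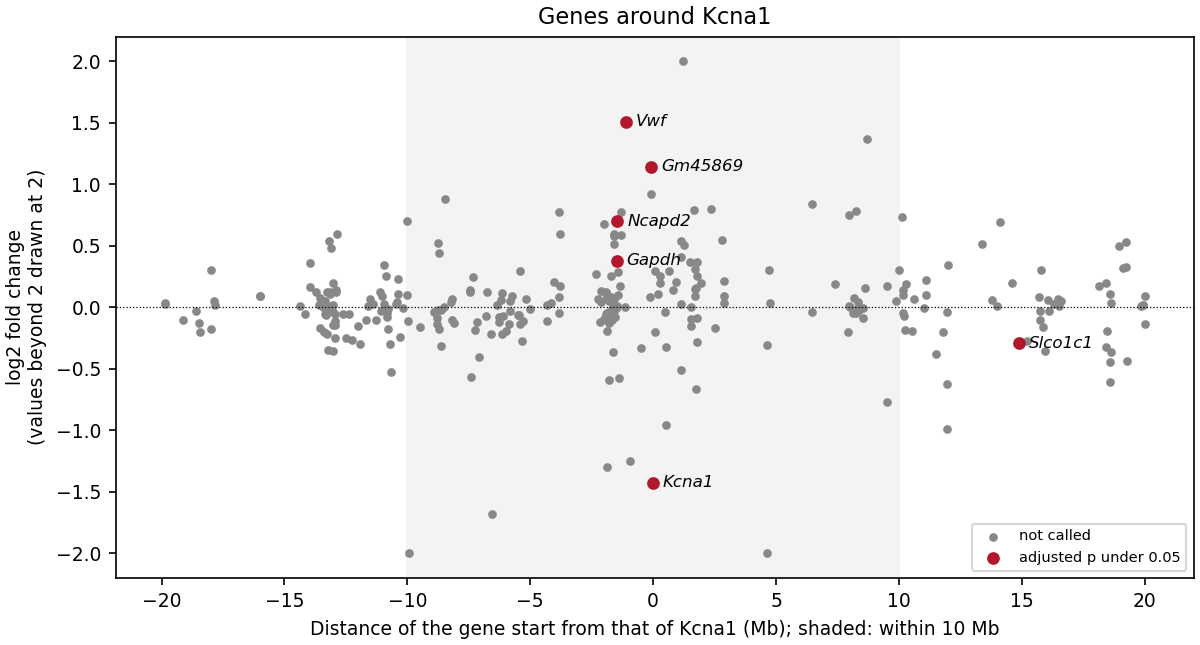
Log2 fold change of tested genes against the distance of their start from that of Kcna1, in Mb, with the window of 10 Mb shaded. The called genes in the window other than Kcna1 lie above 0 and within 2 Mb of it; Slco1c1, farther out, was called lower.

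Gapdh, the glycolytic enzyme often used as a reference gene, was at 851, 889, 947 and 892 CPM in wild type and 1197, 1151, 1185 and 1124 CPM in knockout. Every knockout library was higher, and the log2 fold change was 0.38 ± 0.06 (SE, n = 4 and 4; adjusted p = 0.00957, edgeR). The opposite difference was seen in Gm13394, a processed pseudogene on chromosome 2 at 28933610 to 28934609 (GENCODE M21, GRCm38) that is 99.9% identical to a Gapdh transcript over 1000 bases; it was singled out after its values were seen. Gm13394 had 109, 117, 122 and 124 CPM in wild type and 0.870, 1.35, 0.331 and 0.587 CPM in knockout, so the assignment of reads between these near-identical sequences is uncertain. Summed over Gapdh and its copies, 23 genes, the level was 1017 ± 44.9 CPM (SD, n = 4) in wild type and 1169 ± 33.1 CPM in knockout. The difference of 152 CPM, or 14.97%, had p = 0.0286 in a two-sided exact permutation test, the smallest p that 70 arrangements allow. In wild type on the ketogenic diet, Gm13394 was at 109, 116, 121 and 125 CPM. In knockout on the standard diet, it was at 1.91, 0.932 and 1.27 CPM in KC872RL, KC873RR and KC893RL. KC888LL, the library with intermediate Kcna1, had 57.1 CPM of Gm13394. Against untreated wild type, the log2 fold change of Gapdh was 0.27 in knockout on the standard diet and -0.02 in wild type on the ketogenic diet. Neither was called (adjusted p = 0.192 and 0.998, edgeR). Gapdh was the only called gene among 20 of glycolysis and glucose transport, whose median log2 fold change was 0.07, and 18 of the 20 had an interval within -0.5 to 0.5.

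The other genes called higher were Dnah1, Lmln and Gm44724. Dnah1, an axonemal dynein heavy chain, rose by 0.72 ± 0.14 on the log2 scale (adjusted p = 0.0252, edgeR), with 8.49 to 10.2 CPM in wild type and 11.7 to 20.7 CPM in knockout. Lmln, a metallopeptidase, rose by 0.34 ± 0.07 (adjusted p = 0.0363). Gm44724 rose by 1.27 ± 0.24 (adjusted p = 0.0252), from at most 1.68 CPM to at least 2.87 CPM.

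Pan-reactive astrocyte genes, summed, were at 2522 and 1296 CPM in the diet-treated knockouts KC913RR and KC934R, at 392 and 402 CPM in the other 2, and at 386 to 514 CPM in untreated wild type; none was called. Gfap, the intermediate filament that marks reactive astrocytes, was at 390, 353, 369 and 294 CPM in untreated wild type and at 2018, 288, 1059 and 295 CPM in diet-treated knockout. KC913RR and KC934R were far above the wild types, and KC916RRL and KC935LL, at 288 and 295 CPM, near their lowest library. The log2 fold change was 1.38 ± 0.65 (SE; 95% interval -0.03 to 2.79; adjusted p = 0.579, edgeR), with an interval too wide to place the group near to or far from wild type. Serpina3n, a secreted protease inhibitor, had 44.0, 45.2, 49.5 and 37.6 CPM against 179, 48.3, 125 and 45.9 CPM, with the same libraries high. Vim, another intermediate filament, had 128 and 71.2 CPM in these libraries and 22.3 and 27.0 CPM in the other knockouts, with 23.7 to 35.8 CPM in wild type.

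Of 10 tested genes of the pan-reactive list, 9 had positive log2 fold changes, 4 had an unadjusted p under 0.05 and none was called, with a median of 1.21. Without KC913RR the median was 0.34. Ptx3 of the A2 list, an acute-phase protein, was at 37.5 CPM in KC913RR and between 0.881 and 0.994 CPM in the other knockouts, with 0.653 to 1.41 CPM in wild type; its log2 fold change of 3.30 became -0.12 without KC913RR. The median of the 11 tested A2 genes was 0.56, and -0.04 without KC913RR. Of the 11 genes of the A1 list none had an unadjusted p under 0.05, and their sum was 163, 151, 145 and 166 CPM in the knockouts, without the split of the pan-reactive genes. Astrocyte identity and clearance genes showed no call among 15, and 11 of them had an interval within -0.5 to 0.5. Slc1a2 and Slc1a3, the glutamate transporters, had log2 fold changes of 0.00 and -0.13. Aqp4, the water channel of astrocyte end-feet, had 190, 166, 146 and 149 CPM against 244, 107, 230 and 115 CPM, with the Gfap-high libraries above and the others below the wild types.

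Penk, Npy and Bdnf, which respond to seizures, had high values in the same libraries. Penk, encoding proenkephalin, was at 17.9, 9.63, 13.1 and 17.4 CPM in wild type and 108, 10.2, 119 and 12.4 CPM in knockout. Penk is also in the striatal list, whose sum was 354, 173, 305 and 166 CPM in knockout and 174 to 207 CPM in wild type; the part of striatal tissue was not tested. Npy, encoding neuropeptide Y, was at 15.1 to 19.1 CPM in wild type and at 59.9, 20.04, 100 and 18.4 CPM in knockout. Bdnf, a neurotrophin induced by activity, was at 36.3 to 40.9 CPM in wild type and at 154, 33.5, 71.4 and 32.9 CPM in knockout. KC913RR and KC934R thus held the high values of Penk, Npy and Bdnf as of Gfap, and the log2 fold changes of 2.11, 1.55 and 0.93 had adjusted p = 0.421, 0.519 and 0.527 in edgeR. C1ql2, a synaptic organizer of dentate granule cell mossy fibres, did not overlap: 31.7, 34.3, 32.4 and 31.2 CPM against 90.8, 51.3, 74.5 and 48.3 CPM, with a log2 fold change of 1.03 ± 0.22 that missed the threshold (adjusted p = 0.0813). In the list of late activity effectors 4 genes had an unadjusted p under 0.05 with a higher level and 2 with a lower one, and none of 16 was called; the list median was 0.49, and 0.07 without KC913RR.

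Immediate early genes, transcribed within minutes of neuronal firing, were mostly lower in value and none of 20 was called. Of these, 5 had an unadjusted p under 0.05 with a lower level, among them Egr2 at -1.53, Nr4a1 at -0.85 and Egr1 at -0.85 on the log2 scale, and the list median was -0.34. That median was -0.57 without KC913RR and -0.22 without KC935LL. Fos was at 12.1, 8.01, 11.8 and 14.4 CPM in wild type and 25.4, 6.73, 1.38 and 2.82 CPM in knockout, with KC913RR above all wild types and the others below. Arc, which acts at active synapses, was at 73.2 to 89.6 CPM in wild type and 76.0, 69.2, 27.2 and 43.0 CPM in knockout. Jun was higher in value: 133, 131, 142 and 110 CPM against 178, 180, 171 and 160 CPM, with no overlap, a log2 fold change of 0.42 ± 0.09 and an adjusted p = 0.0647 in edgeR. Btg2, an antiproliferative gene that was called higher in wild type on the ketogenic diet against the same wild types (0.78 ± 0.12, adjusted p = 0.0415), had a log2 fold change of 0.06 ± 0.12 here, with an interval of -0.19 to 0.32.

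Microglial genes gave no call among 17; 14 had negative log2 fold changes and the median was -0.11, or -0.03 with Xist as a covariate. Their summed level was 337 to 380 CPM in untreated wild type and 313 to 334 CPM in diet-treated knockout, ranges that did not overlap, beside 755, 753, 347 and 367 CPM in the libraries KC872RL, KC873RR, KC888LL and KC893RL of knockout on the standard diet. P2ry12, the purinergic receptor of resting microglia, was at 35.7, 31.9, 30.7 and 37.0 CPM in wild type and 23.5, 30.4, 27.7 and 25.8 CPM in knockout. All 4 knockouts were below all wild types, but the log2 fold change of -0.33 ± 0.18 had an adjusted p = 0.635 in edgeR, with an interval of -0.72 to 0.06. Interferon response genes gave no call among 15; Ifit1, the one with the smallest p, had an adjusted p = 0.352.

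Genes of cholesterol synthesis and uptake gave no call, and their summed level split the knockouts. It was 1309 to 1332 CPM in wild type and 1929, 1139, 2106 and 1228 CPM in knockout, so KC913RR and KC934R lay above and KC916RRL and KC935LL below every wild type. Of 24 genes 22 were positive, 6 had an unadjusted p under 0.05, all higher, and the median log2 fold change was 0.29, or 0.11 without KC934R. Hmgcs1, an early enzyme of the pathway, was at 284, 268, 260 and 267 CPM in wild type and 439, 188, 463 and 226 CPM in knockout, again with KC913RR and KC934R high. Mvk, mevalonate kinase, had a log2 fold change of 0.35 (adjusted p = 0.378, edgeR). Genes of fatty acid oxidation and ketone use gave no call among 23, and 16 had an interval within -0.5 to 0.5. Oxct1 and Bdh1, which take up ketone bodies into metabolism, had log2 fold changes of -0.02 and -0.03. Acot1 had the smallest p of that list, with a log2 fold change of 0.39 ± 0.14 and an adjusted p = 0.374, and Pdk4, which shuts pyruvate out of oxidation, had -0.27 ± 0.22.

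In the lists of Kv1 channels and partners, other potassium and HCN channels, GABA and glutamate genes, Kcna1 and Slc12a2 were the called members. Slc12a2, the chloride importer that opposes Slc12a5 and that oligodendrocytes also express, was at 107, 124, 95.1 and 83.8 CPM in wild type and 67.9, 63.3, 66.7 and 75.8 CPM in knockout. It fell by 0.58 ± 0.10 on the log2 scale (adjusted p = 0.0149, edgeR), while Slc12a5, the neuronal chloride exporter, had a log2 fold change of -0.08. In the Kv1 list 11 of 14 genes had an interval within -0.5 to 0.5. Kcna2, a partner subunit of Kcna1, had a log2 fold change of -0.02, and Kcna4, another subunit, 0.44 with an unadjusted p of 0.00022. The 20 glutamate genes gave no call, with 17 inside the same interval, 15 positive and 5 negative. Their summed level was 7666 to 7866 CPM in wild type and 7928 to 8660 CPM in knockout, ranges that did not overlap. Of the 19 GABA genes, 14 had an interval within -0.5 to 0.5. Gad1, which makes GABA, had a log2 fold change of 0.29 ± 0.08 and an adjusted p = 0.173. No gene was called in the lists of dentate granule cells, CA1 and CA3 pyramidal cells, interneurons, striatum, circadian clock, glucocorticoid-induced genes, mitochondrially encoded genes or other potassium and HCN channels, whose medians lay between -0.08 and 0.14.

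Cbs, which condenses homocysteine with serine, and Stra6, a retinol transporter, were not called against untreated wild type. Cbs was at 32.9, 28.5, 32.4 and 27.2 CPM in untreated wild type and 31.2, 35.6, 34.3 and 31.9 CPM in diet-treated knockout, ranges that overlapped, with a log2 fold change of 0.14 ± 0.09 and an interval of -0.05 to 0.32. Against knockout on the standard diet the same diet-treated libraries were higher by 0.49 (adjusted p = 0.0144, edgeR). Stra6 had a log2 fold change of 0.36 ± 0.16 (adjusted p = 0.542) against untreated wild type and 0.90 against knockout on the standard diet (adjusted p = 0.0168). Without KC872RL and KC873RR the latter differences were 0.44 for Cbs (adjusted p = 0.335) and 0.63 for Stra6 (adjusted p = 0.381), and without KC888LL 0.58 (adjusted p = 0.00174) and 1.13 (adjusted p = 0.00127). These comparisons share the diet-treated knockout libraries.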

How the data were processed

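RNA sequencing libraries of mouse hippocampus were compared from a table of raw counts per gene that the authors deposited, with 49315 genes. Build mm10 and DESeq2 are named in the submitters' processing notes; the aligner, counter, annotation and use of strand are not given in the sources used here, so overlapping, antisense and near-identical genes are uncertain. Columns were assigned to groups by genotype and diet. Positions came from GENCODE M21 on GRCm38, which held 48970 of the identifiers, and promoters from RefSeq.

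edgeR 4.0.16 in R 4.3.3 was run with filterByExpr, TMM factors and a robust quasi-likelihood fit of 1 coefficient per group over the 16 libraries (12 residual degrees of freedom). Tests were two-sided, with Benjamini-Hochberg adjustment over 17469 genes and a threshold of 0.05. Standard errors came from the F statistic, intervals are 95%, and log2 CPM for distances used a prior count of 2. Replicates correlated at 0.977 to 0.990 in log2 CPM within diet-treated knockout and at 0.985 to 0.989 within untreated wild type, and no pair agreed within sampling noise. The procedure was tested on simulated data. DESeq2 1.42.0, limma 3.58.1, other scalings, filters and sets of libraries were the alternatives.

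Genes were named by rule: a fixed set, the 12 called genes of smallest p per direction with at least 1 CPM and no overlap, each list's smallest p and called genes, and called genes within 10 Mb of Kcna1. Other genes are given as list members, and any chosen after their values were seen are identified as such. Some members of the lists and of the rule are counted but not reported here by name. The comparison, the lists and the rule were chosen with earlier results of these data known.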

Additional observations from a re-analysis of the deposited data

Results flagged for a closer look

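In 10 of 204 groups of 4 libraries examined, 1 library lay far from the other 3 relative to the group's range (Dixon's criterion at 95%). Chance flags about 5% of groups, about 1 in 20. In untreated wild type, KC894RLL was high for Kcna1 (130 CPM, others 116 to 118) and Serpinb1a (7.002 CPM, others 5.65 to 5.82). KC900RLL was low for Dnah1 (8.49 CPM, others 10.2) and Myrf (49.4 CPM, others 65.8 to 68.3) and high for Ifit1 (1.31 CPM, others 0.269 to 0.377). KC897RR was low for Lmln (27.4 CPM, others 29.0 to 29.3). In diet-treated knockout, KC935LL was high for Tspan2 (109 CPM, others 83.8 to 87.8) and KC934R for Mvk (24.1 CPM, others 16.6 to 17.3). KC913RR was high for Hspb1 (20.8 CPM, others 3.29 to 3.88) and Ptx3 (37.5 CPM, others 0.881 to 0.994).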

How the results depend on the processing

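Over 19 alternative fits, 1142 of 1326 values of named genes kept their direction and side of the threshold, 170 missed it, 11 passed it and 3 changed sign: Ptx3 at -0.12 without KC913RR, and Aqp4 at -0.11 without KC913RR and -0.07 without KC934R. Leaving out 1 library, Ptx3 ranged from -0.12 to 3.69 and Aqp4 from -0.11 to 0.27. DESeq2 called 171 genes, 44 higher and 127 lower, with 58 of the 59 shared and 74.3% lower against 88.1% in edgeR; limma-voom called 39, with 3 higher and 2 near Kcna1. Without a low-count filter 83 were called, 46 of them shared, 17 higher and 79.5% lower. With only the 8 libraries compared 12 were called (2 higher, 10 lower, 2 near Kcna1). With only Xist libraries 8 were called (0 higher, 8 lower, 0 near Kcna1). Without KC888LL 73 were called, 16 of them higher and 78.1% lower. Leaving out 1 library gave 10 to 119 called genes, 0 to 27 higher, 10 to 92 lower and 0 to 6 near Kcna1, and distances of 0.00691 to 0.0495, the last with exact permutation p = 0.0286 (without KC935LL). The narrow-interval count moved by less than 1.5 times. The distance gap of knockout on the standard diet to untreated wild type was -0.00455 without KC872RL and KC873RR. The cause of these shifts was not tested.

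No paired analysis was possible because the columns give an animal tag but no replicate number. Each group held 4 libraries, and the median 95% interval reached 0.26 to either side on the log2 scale. With the spread shared over 16 libraries 59 genes were called, and with only the 8 libraries compared 12. What limited detection was not tested. Genotype and diet cannot be told apart in this comparison, sex was addressed only through Xist and Ddx3y reads, and dissection and residual blood were not controlled.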
